A study of Mus musculus with 24 samples.

Results

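The genes described here are transcription factors known to maintain blood stem cells, measured by RNA-seq in LSK-SLAM cells of young and old mice. Of 10 factors asked for by name, 8 had a row among the 18762 genes of the table, namely *Gata2*, *Tal1*, *Lyl1*, *Lmo2*, *Hlf*, *Mecom*, *Fli1* and *Gfi1b*. *Erg* and *Mycn* were not analysed here. LSK-SLAM cells are the bone marrow fraction that lacks lineage markers and CD48 and carries Sca-1, c-Kit and CD150, in which hematopoietic stem cells (HSCs) are enriched. All mice were WT C57BL/6 animals without treatment in the labels. The young group held 5 mice of 4 to 5 months and the old group 7 mice of 20 to 22 months. The RNA came from 15000 cells, and 300 pg of it, after removal of ribosomal RNA, was the input of each library. In bulk RNA of this kind, fewer cells that express a gene and less of its RNA per cell cannot be told apart.

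These factors act as a network. *Gata2* encodes a zinc finger protein that binds GATA sites, and *Tal1* and *Lyl1* encode related basic helix-loop-helix proteins that bind E-boxes as dimers with E proteins. LMO2 does not bind DNA itself but joins TAL1 or LYL1 to GATA factors through LDB1, and FLI1 is an ETS factor that sits beside this complex at many enhancers of blood progenitors. *Hlf* encodes a PAR bZIP factor and *Mecom* the zinc finger protein EVI1, both known for their role in HSC maintenance, while GFI1B is a repressor that recruits the KDM1A and RCOR1 complex and is also needed in erythroid and megakaryocyte cells.

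Each value is a normalized read count, that is, the reads on a gene scaled by the authors to the size of the library. Recovered reads on genes numbered 861047 to 5118507 in a mouse. The name of every mouse ends in a letter A or B, whose meaning the sources used here do not state. Mice of letter A, 2 young and 4 old, had at most 3106243 reads, and mice of letter B, 3 young and 3 old, at least 3233516, so letter and depth cannot be told apart. Between 53 and 9134 reads lay behind a single value of a factor.

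The DNA before the starts of the members is shown for the motifs of their own families, as a description. RefSeq start sites on GRCm38.p6 were given for 6 of the 8 genes, in 9 windows of 250 bases before the start. *Lmo2* and *Fli1* had no entry. The windows were searched on both strands. The GATA motif was GATAA. The E-box was CANNTG. The ETS core was CGGAA. Matches to the GATA motif lay in 4 of the 9 windows, an E-box in 4 and an ETS core in 5. Among all 32851 windows of the same length, 22.6%, 66.2% and 25.2% held such a match. No 2 of these matches overlapped in the windows of the members. The 6 windows that hold motifs of at least 2 families are shown, a rule set after the matches were seen, with the matches in capitals.
*Tal1*, chr4:115056176-115056425, plus strand: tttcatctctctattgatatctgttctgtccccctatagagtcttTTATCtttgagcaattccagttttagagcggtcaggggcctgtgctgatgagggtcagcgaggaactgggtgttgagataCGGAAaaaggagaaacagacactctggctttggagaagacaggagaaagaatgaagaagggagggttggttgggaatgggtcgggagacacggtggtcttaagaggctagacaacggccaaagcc
*Lyl1*, chr8:84701207-84701456, plus strand: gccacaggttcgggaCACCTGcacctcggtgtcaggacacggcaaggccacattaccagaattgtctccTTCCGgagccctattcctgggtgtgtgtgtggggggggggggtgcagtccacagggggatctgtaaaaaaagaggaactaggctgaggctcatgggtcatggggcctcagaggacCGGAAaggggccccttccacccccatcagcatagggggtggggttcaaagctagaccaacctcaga
*Hlf*, chr11:90390918-90391167, minus strand: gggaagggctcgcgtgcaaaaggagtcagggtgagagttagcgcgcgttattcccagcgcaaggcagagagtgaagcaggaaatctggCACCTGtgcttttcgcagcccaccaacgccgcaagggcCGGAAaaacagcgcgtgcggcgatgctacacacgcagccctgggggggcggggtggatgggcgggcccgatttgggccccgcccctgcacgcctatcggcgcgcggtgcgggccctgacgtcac
*Mecom*, chr3:30509760-30510009, minus strand: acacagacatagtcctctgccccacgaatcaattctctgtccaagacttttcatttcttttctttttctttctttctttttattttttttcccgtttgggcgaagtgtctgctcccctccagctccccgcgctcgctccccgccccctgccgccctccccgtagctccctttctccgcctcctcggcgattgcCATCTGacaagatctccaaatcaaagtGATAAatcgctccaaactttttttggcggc
*Mecom*, downstream start, chr3:30013205-30013454, minus strand: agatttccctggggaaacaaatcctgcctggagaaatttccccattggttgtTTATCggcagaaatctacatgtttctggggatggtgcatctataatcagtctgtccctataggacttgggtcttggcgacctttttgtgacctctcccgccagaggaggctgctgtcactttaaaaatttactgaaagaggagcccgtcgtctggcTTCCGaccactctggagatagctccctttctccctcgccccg
*Gfi1b*, chr2:28621983-28622232, minus strand: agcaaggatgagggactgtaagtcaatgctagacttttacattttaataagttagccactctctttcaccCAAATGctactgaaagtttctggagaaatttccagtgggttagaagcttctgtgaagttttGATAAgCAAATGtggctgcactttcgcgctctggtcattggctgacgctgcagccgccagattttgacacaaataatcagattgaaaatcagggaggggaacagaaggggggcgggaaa
The *Tal1* window has a GATA match and an ETS core, and the *Lyl1* window an E-box and 2 ETS cores. The *Hlf* window holds an E-box and an ETS core, and the window at the downstream start of *Mecom* a GATA match and an ETS core. The first *Mecom* window has an E-box followed by a GATA match, and in the *Gfi1b* window a GATA match stands 1 base before the second of 2 E-boxes. A match describes letters only, and nothing was measured of binding here.

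All 8 factors were well expressed in the LSK-SLAM cells. Per kb of exon, their mean levels over the 12 mice lay between the 90.9 and the 99.8 percentile of the 12354 genes tested. *Lmo2* led with 559 ± 161 normalized read counts per kb (SD, n = 12) and was the highest of the 8 in every mouse. *Mecom* was the lowest in every mouse, with 30.9 ± 9.46 per kb (SD, n = 12), on the scale of its exons of 12.427 kb, the longest of the 8. Between these, the mean levels per kb were 146 for *Hlf*, 114 for *Fli1*, 104 for *Gata2*, 97.9 for *Lyl1*, 65.5 for *Tal1* and 58.7 for *Gfi1b*. Only some steps of this order held in all mice. *Lyl1* was above *Tal1* in 12 of 12 mice and *Gfi1b* above *Mecom* in 12 of 12. *Hlf* was above *Fli1* in 9, *Fli1* above *Gata2* in 8, *Tal1* above *Gfi1b* in 8 and *Gata2* above *Lyl1* in 6 of 12 mice, so these neighbours did not keep 1 order.

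**Figure D1:**
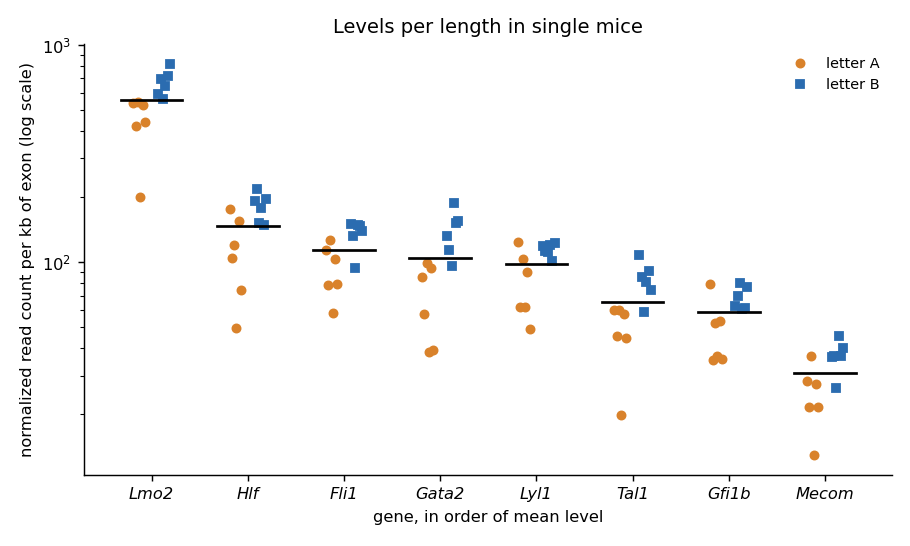
Normalized read counts per kb of exon (log axis) of the 8 factors in each of 12 mice, with circles for letter A, squares for letter B and a line at the mean over all mice. *Lmo2* (mean 559) stands above and *Mecom* (mean 30.9) below the other genes, and within each gene the lowest points are mice of letter A.

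The members of the complex were examined first for a difference between old and young mice. *Gata2* had normalized read counts of 462, 312, 709, 613 and 519 in young mice 1 to 5 and of 535, 1013, 820.0, 831, 208, 507 and 212 in old mice 1 to 7. The old mice held the highest and the lowest values, and the groups overlapped. *Gata2* averaged 523 ± 151 over the young (SD, n = 5) and 589 ± 314 over the old mice (SD, n = 7). Its log2 fold change, old over young, was 0.00 with a standard error (SE) of 0.39 and a 95% interval from -0.82 to 0.82. *Tal1*, which specifies blood stem cells in the embryo, measured 262, 199.99, 472, 374 and 259 in young mice and 262, 354, 400, 324, 86.0, 252 and 196 in old mice. Its lowest value was that of old mouse 5, and the remaining old values lay close to or within the young range. *Tal1* averaged 313 ± 109 over the young (SD, n = 5) and 268 ± 105 over the old mice (SD, n = 7), and its log2 fold change was -0.29 (SE 0.32).
*Lyl1*, the relative of *Tal1* that can stand in for it in adult stem cells, measured 223, 112, 214, 201 and 199 in young and 185, 215, 183, 220.3, 111, 162 and 88.5 in old mice. Young mouse 2 lay below the other young mice. Its log2 fold change was -0.22 (SE 0.24). For *Lmo2*, the bridging protein, the values were 1171, 911, 1288, 1501 and 1221 in young and 1187, 1396, 1556, 1776, 431, 1147 and 954 in old mice. The old values again spread on both sides of the young ones, around averages of 1219 ± 213 for the young (SD, n = 5) and 1207 ± 438 for the old mice (SD, n = 7). The log2 fold change of *Lmo2* was -0.11 (SE 0.37).

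*Fli1*, the ETS factor, measured 394, 272, 521, 457 and 328 in young and 442, 516, 509, 485, 203, 359 and 275 in old mice. Its means of 394 ± 99.1 (SD, n = 5) and 398 ± 123 (SD, n = 7) differed by less than either SD. *Mecom* measured 352, 268, 452, 457 and 325 in young and 460.1, 567, 459.6, 499.8, 160.2, 339.9 and 267 in old mice. Here 4 of the 7 old mice were above all young mice and 2 were below all of them. *Hlf* measured 1166, 696, 1281, 1447 and 1006 in young and 801, 1187, 993, 1303, 332, 1036 and 494 in old mice. No old mouse reached the highest young value, and 2 old mice lay below the lowest. Its means, 1119 ± 286 (SD, n = 5) and 878 ± 357 (SD, n = 7), gave the age log2 fold change farthest from 0 among the 8, -0.44 (SE 0.36), with a 95% interval from -1.20 to 0.32. *Gfi1b*, the repressor, measured 145, 64.4, 114, 128 and 147 in young and 95.4, 111, 113, 140.4, 67.9, 98.2 and 65.2 in old mice. Its means were 119.7 ± 33.7 (SD, n = 5) and 98.7 ± 26.4 (SD, n = 7), its log2 fold change was -0.26 (SE 0.24), and the ranges overlapped almost entirely.

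**Figure D2:**
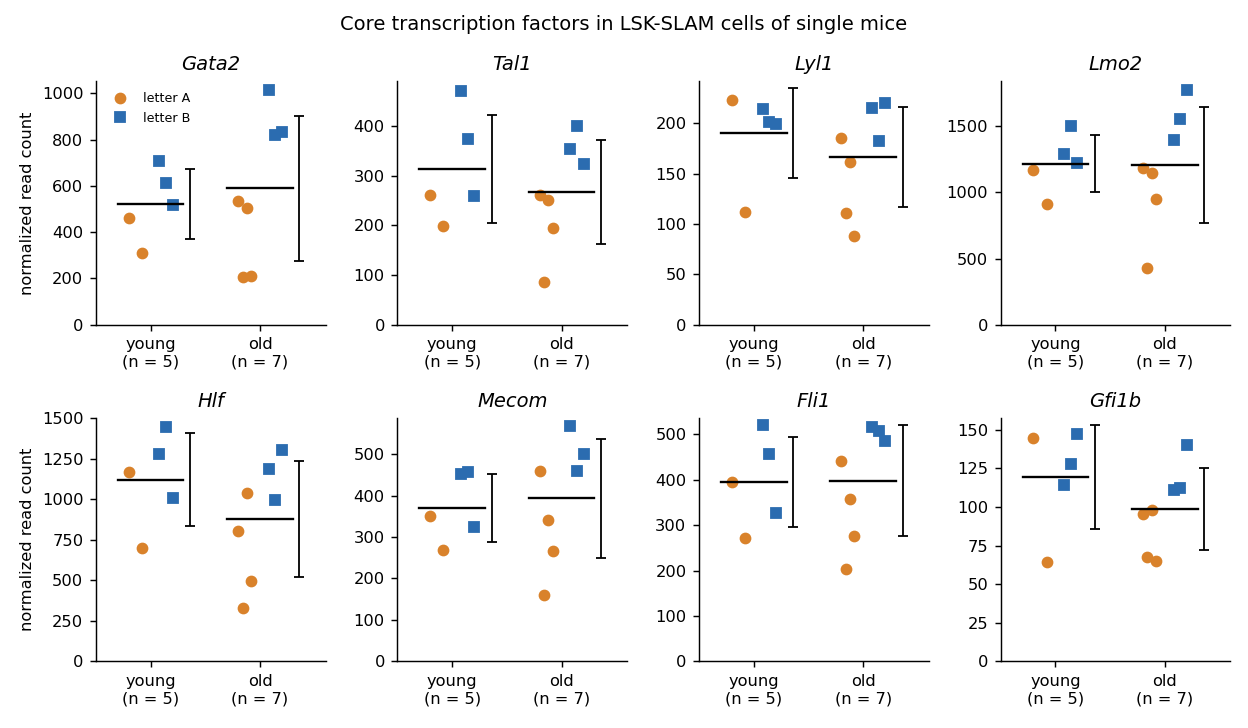
Normalized read counts of the 8 factors in each young (n = 5) and old (n = 7) mouse, with circles for letter A and squares for letter B, a horizontal line at the mean and a bar of 1 SD on each side. Young and old values overlap in every panel, and within an age the squares tend to stand above the circles.

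Across the 8 factors, none passed the test of age. With limma on log2(value + 1) and Benjamini-Hochberg adjustment over all 12354 genes, 0 of 8 had an adjusted p under 0.05, and each had an adjusted p of 0.9997. Of all genes tested, 0.105% passed. At an unadjusted p under 0.05 there were again 0 of 8 factors, against 3.95% of all genes. EdgeR's quasi-likelihood test and DESeq2 on recovered reads also called 0 of 8. The median log2 fold change of the factors was -0.16, beside -0.02 over all genes. No factor had old and young values without overlap, as 0.461% of all genes did. The 95% intervals of the 8 together ran from a 0.434-fold level for *Hlf* to a 1.76-fold level for *Gata2* in old mice. Each factor had its own, narrower interval, such as 0.591-fold to 1.17-fold for *Gfi1b*. Changes inside the interval of a factor could not be told from none at this number of mice.

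With the letter as a covariate, the standard errors fell to between 0.20 and 0.28 and the median log2 fold change of the factors was -0.06, beside -0.05 over all genes. Again 0 of 8 factors were called, while 0.299% of all genes were. *Gata2* stood at 0.19 (SE 0.25), *Mecom* at 0.12 and *Fli1* at 0.08, whereas *Hlf* stood at -0.32 (SE 0.28), *Gfi1b* at -0.18, *Tal1* at -0.15 and *Lyl1* at -0.12. *Lmo2* was at 0.00. In this fit the 95% intervals ran from 0.541-fold for *Hlf* to 1.63-fold for *Gata2*.

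Within the mice of letter B, *Gata2* and *Mecom* were the factors with old values above all young values. *Gata2* was 519 to 709 in 3 young and 820.0 to 1013 in 3 old mice of letter B, which gave 0.54 on the log2 scale (SE 0.17, limma adjusted p = 0.192). *Mecom* was 325 to 457 in the young and 459.6 to 567 in the old mice of letter B, which gave 0.32 on the log2 scale (SE 0.17, limma adjusted p = 0.680). These are 2 of 8 factors, and 6.72% of all genes were higher in old mice without overlap in the same way. Within letter B, 0 of 8 factors and 0.809% of all genes passed the test. Within letter A, no factor separated the ages, and the log2 fold changes of all 8 were below 0, from -0.57 for *Hlf* to -0.09 for *Fli1*, with standard errors between 0.37 and 0.55. There 0.00809% of all genes passed. The difference of the age effect between the letters, tested as an interaction, passed for 0 of 8 factors and for 0.0162% of all genes. For *Gata2* that difference was 0.74 (SE 0.50, limma adjusted p = 0.9998).

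**Figure D3:**
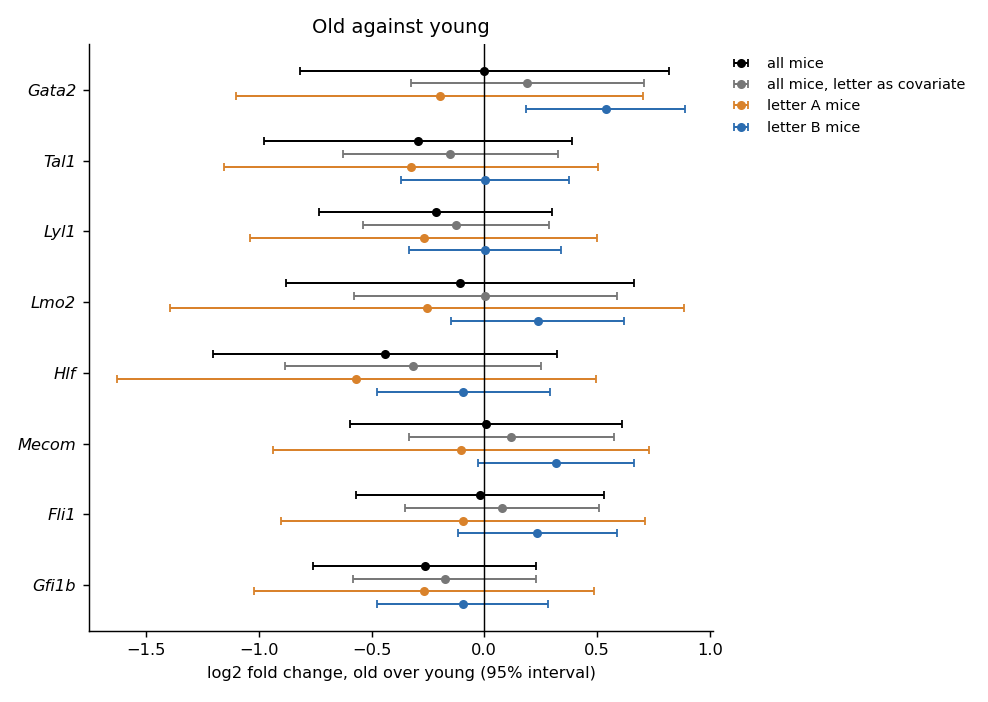
Log2 fold changes of the 8 factors, old over young, with 95% intervals from limma, in all mice, in all mice with the letter as a covariate, and within each letter. The intervals include 0 apart from *Gata2* within letter B (0.54, from 0.18 to 0.89).

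The letter in the name of a mouse went with larger differences than its age. 7 of the 8 factors, all but *Lmo2*, were higher in letter B than in letter A with age in the model (limma, adjusted p under 0.05). EdgeR's quasi-likelihood test and DESeq2 on recovered reads called all 8, *Lmo2* included, with highest adjusted p of 0.0315 and 0.0180. With limma, 10.5% of all genes were called higher and 25.6% lower in letter B, and 36.1% were called in either direction. These shares are not those of the 2 count tests, so their 8 of 8 cannot be set against them. *Gata2* averaged 372 ± 148 in letter A (SD, n = 6) and 751 ± 176 in letter B (SD, n = 6), and its log2 fold change of 1.11 passed (SE 0.25, limma adjusted p = 0.00196). *Tal1* averaged 209.5 ± 67.6 in letter A (SD, n = 6) and 364 ± 71.8 in letter B (SD, n = 6), with 0.83 on the log2 scale (SE 0.23, limma adjusted p = 0.00744). The log2 fold changes of the other called factors were 0.73 for *Hlf*, 0.65 for *Mecom*, 0.58 for *Fli1*, 0.53 for *Lyl1* and 0.51 for *Gfi1b*, with adjusted p between 0.0231 and 0.0416. *Lmo2* was the factor with no overlap between the letters, 431 to 1187 in letter A and 1221 to 1776 in letter B, and its log2 fold change of 0.65 (SE 0.28) had a limma adjusted p of 0.0673. Without old mouse 5, which had the value of 431, *Lmo2* stood at 0.45 (limma adjusted p = 0.0644). Of all genes, 3.16% were higher in letter B without overlap.
The median log2 fold change of the factors was 0.65, beside -0.09 over all genes. This contrast was smaller among genes of higher expression, and its cause was not tested. The test was also limited to the 4799 genes whose mean reached 50 normalized read counts, all 8 factors among them. The median of these genes was 0.30, beside 0.65 for the factors. Of these genes 17.3% were called higher in letter B and 2.35% lower, and the factors called were 3, *Gata2*, *Tal1* and *Mecom*. With reads thinned to 861047 in every mouse, 5 factors were called higher, with a median log2 fold change of 0.64, while 8.85% of all genes were called higher. After rescaling by median ratios, which moved the median of all genes to -0.28, the median of the factors was 0.47 and 5 were called, beside 6.17% of all genes called higher.

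The letter difference of the factors had the same direction in both ages. Among old mice, *Gata2* (log2 fold change 1.42, SE 0.37, limma adjusted p = 0.0104) and *Tal1* (0.97, SE 0.32, limma adjusted p = 0.0366) passed the test, both higher in letter B, as were 4.85% of all genes. *Gata2*, *Tal1*, *Lmo2*, *Fli1* and *Gfi1b* were higher in every old mouse of letter B than in every old mouse of letter A, which 11.6% of all genes also were. Among young mice 0 of 8 factors passed, beside 1.53% of all genes called higher in letter B and 3.62% called in either direction. The log2 fold changes of the factors there ran from 0.37 for *Lmo2* to 0.68 for *Gata2*. *Gata2* and *Lmo2* were higher without overlap in young mice of letter B, as were 13.9% of all genes.
How many factors were called changed with single mice, as did the number of all genes called, which ran from 2943 to 5003. The share of all genes in each of these fits is not set beside the factors here, so the change cannot be called particular to them. All 8 were called without young mouse 1 or old mouse 1, 4 without young mouse 3, and 3 without young mouse 4, old mouse 3 or old mouse 7. Without young mouse 2, old mouse 2 or old mouse 4, *Gata2* and *Tal1* were the 2 still called. All 192 log2 fold changes of the factors from 24 alternatives were above 0.

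**Figure D4:**
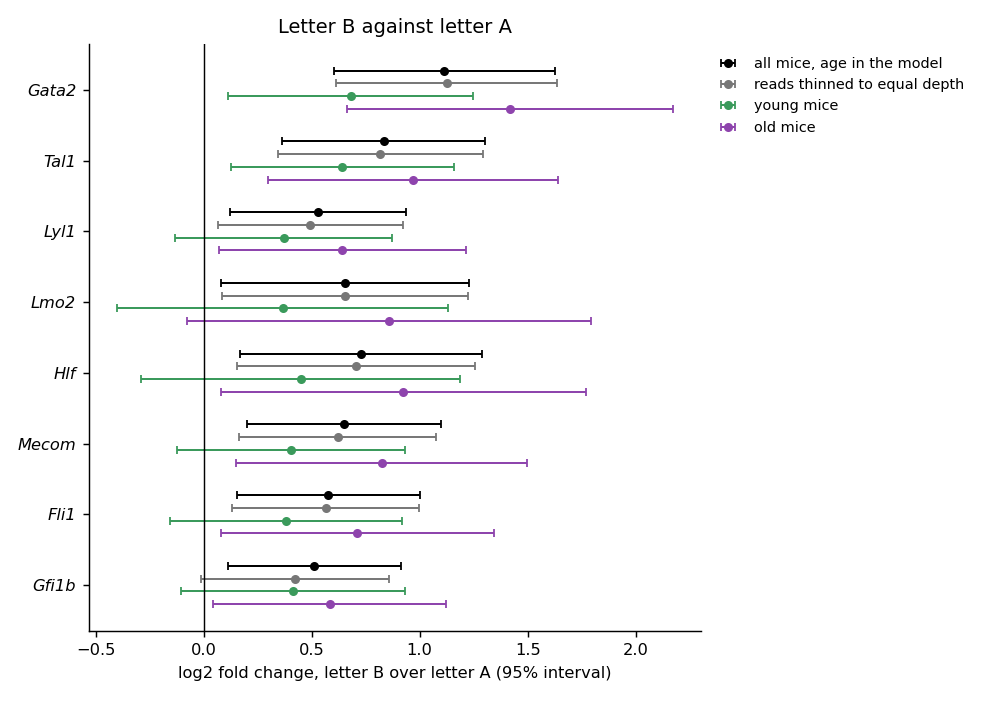
Log2 fold changes of the 8 factors, letter B over letter A, with 95% intervals from limma, in all mice with age in the model, after thinning the reads to equal depth, and within young or old mice. All points are above 0, and *Gata2* has the highest in each of the 4 fits (1.11 in all mice).

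In single mice the 8 factors moved together. For each factor, the log2 deviation of a mouse from the mean of the gene over 12 mice was taken. All 8 deviations were above 0 in young mice 3 and 4 and in old mice 2, 3 and 4, which are mice of letter B. All 8 were below 0 in young mouse 2 and in old mice 5 and 7, which are mice of letter A. The median deviation was -1.23 in old mouse 5, -0.56 in old mouse 7 and -0.46 in young mouse 2, and between -0.07 and 0.45 in the other mice. Old mouse 5 was the lowest of all mice for 6 of the 8 factors, down to -1.61 for *Tal1*, whereas *Gfi1b* in the same mouse was at -0.60.
These 3 mice had the fewest recovered reads, 2049091 in young mouse 2, 1133194 in old mouse 5 and 861047 in old mouse 7. In old mouse 5 the median deviation over all genes was 0.09. Its median-ratio factor of 0.807 was the lowest of the 12 mice, and after rescaling by median ratios the median deviation of the factors there was -0.90. Its stem cell gate markers *Kit*, *Ly6a*, *Slamf1* and *Procr* summed to 672 normalized read counts, against 1090 to 2466 in the other mice. In the same mouse the B and T lymphoid markers summed to 287, the highest of all mice, and the myeloid markers to 998. The highest myeloid sum, 2303, was that of old mouse 6, where the median deviation of the factors was -0.07. Young mouse 2, with a median deviation of -0.46, had the lowest myeloid sum of letter A, 282. Its gate markers summed to 1362 and those of old mouse 7 to 1090, below the mice other than these 3, which had 1681 to 2466. The lymphoid markers summed to 219 in young mouse 2 and 234 in old mouse 7, above the mice other than these 3, which had 66.1 to 204. The part of these cells, and of depth, in the low levels of the factors was not tested.
Without old mouse 5 and with the letter as a covariate, the age log2 fold changes ran from -0.18 for *Hlf* to 0.31 for *Gata2*, and 0 of 8 factors passed, beside 0.615% of all genes. Without it, the letter log2 fold changes ran from 0.45 for *Lmo2* to 0.97 for *Gata2*, and 5 factors were called higher, beside 8.51% of all genes.

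**Figure D5:**
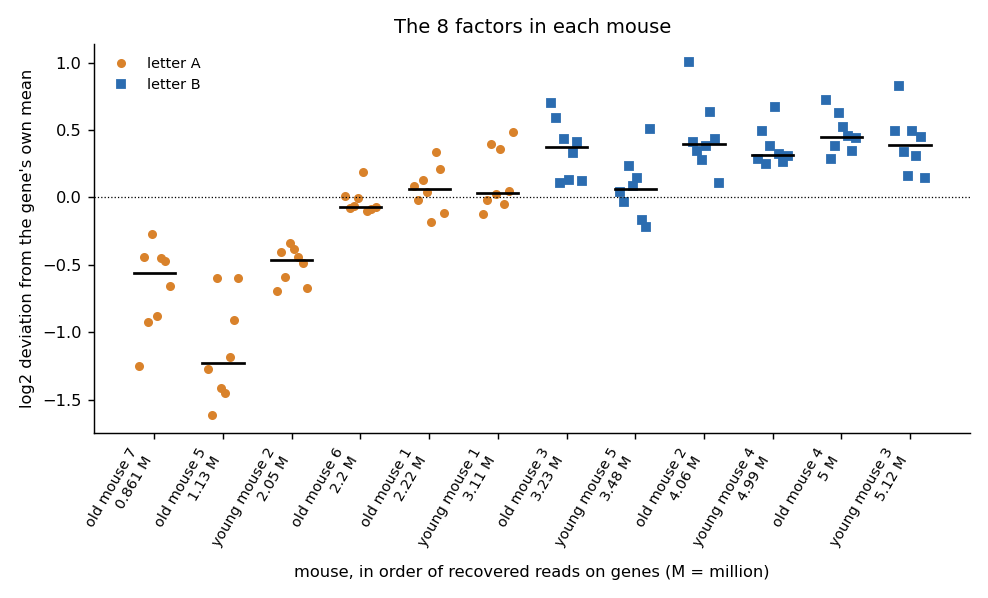
Log2 deviation of each of the 8 factors from its own mean over 12 mice, by mouse in order of recovered reads, with circles for letter A, squares for letter B and a line at the median of the 8. The medians are lowest in old mouse 5 (-1.23), old mouse 7 (-0.56) and young mouse 2 (-0.46).

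After subtracting the age and letter effects, all 28 pairs of factors had a Pearson correlation above 0 over the 12 mice, from 0.35 for *Tal1* with *Gfi1b* to 0.95 for *Mecom* with *Fli1*, with a median of 0.81. Without old mouse 5 the 28 correlations were still above 0, with a median of 0.73 and a lowest value of 0.24. The points share a library and its depth, so the values describe these mice and carry no test. The correlations of pairs of other genes are not given here, so the values cannot be called particular to the factors. The gene most like each factor in this measure was not another factor. It was *Ubl7* for *Gata2* (0.98), *Csnk1a1* for *Tal1* (0.99), *Ctdnep1* for *Lyl1* (0.97), *Pdk3* for *Lmo2* (0.99), *Adipor1* for *Hlf* (0.98), *Nfatc3* for *Mecom* (0.98), *Sh2b1* for *Fli1* (0.97) and *Dynlrb1* for *Gfi1b* (0.94). The most alike factor ranked 25 among all genes for *Fli1* and 301 for *Lmo2*, with the others between these places.

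Genes of proteins that work with the factors were examined in the same way. Of 21 complex partners and cofactors, 19 had a row and were tested, and *Ssbp2* and *Tcf4* were not analysed here. With age, 0 of 19 passed with or without the letter as a covariate, and the median log2 fold change was -0.14, or -0.04 with the covariate. The smallest unadjusted p belonged to *Ldb1*, the LIM-binding partner of LMO2, with 243 ± 47.2 in the young (SD, n = 5) and 189 ± 74.7 in the old mice (SD, n = 7). Next came *Max*, the dimer partner of MYC proteins, with 122 ± 12.8 (SD, n = 5) and 101 ± 30.6 (SD, n = 7). Their age log2 fold changes were -0.45 (SE 0.27) and -0.32 (SE 0.22).
Between the letters, 11 of the 19 partners were called higher in letter B, 0 were called lower and all 19 were above 0, with a median of 0.58. Of all genes 10.5% were called higher, and when the test was limited to genes whose mean reached 50, as that of 18 of the 19 did, 17.3% were, with a median of 0.30. That limited test had its own adjustment, under which the factors called fell from 7 to 3. The number of partners it called is not given here, so the 11 of 19 cannot be set against its 17.3%. The 2 largest, named after their values were seen, were *Zfpm1*, the GATA cofactor FOG1, at 1.44 on the log2 scale (SE 0.27, limma adjusted p = 5.00e-04), and *Hdac1*, a histone deacetylase of the KDM1A complex, at 1.16 (SE 0.28, limma adjusted p = 0.00367). *Zfpm1* measured 87.3 to 343 in letter A and 374 to 684 in letter B.

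Of 4 E protein inhibitors, *Id1* and *Id3* were below the mean of 10 normalized read counts needed for the test, and *Id2* and *Id4* were not analysed here. Of 18 paralogues of the factors, 16 had a row and 11 were tested. With age 0 of 11 passed. *Ets1*, the ETS gene next to *Fli1*, averaged 51.1 ± 12.9 in the young (SD, n = 5) and 69.2 ± 13.2 in the old mice (SD, n = 7), which gave 0.44 on the log2 scale (SE 0.20, limma adjusted p = 0.9997). *Prdm16*, a relative of *Mecom* also known from HSC maintenance, averaged 126 ± 14.1 (SD, n = 5) and 157 ± 43.7 (SD, n = 7), which gave 0.27 (SE 0.20). Between the letters *Prdm16* (0.45) and *Myc* (0.87) were called higher in letter B, and *Nhlh2* (-2.12) and *Mycl* (-1.52) lower. Of all genes 10.5% were called higher and 25.6% lower, and of those with a mean under 50, 40.3% were called lower. *Nhlh2* averaged 26.8 in letter A and 5.45 in letter B, and *Mycl* 16.4 and 5.56.

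Of 15 genes that are usually placed downstream of the factors, all were tested and 0 passed with age alone. With the letter as a covariate, *Cd34* was called lower in old mice. It averaged 182 ± 53.0 over the young (SD, n = 5) and 84.5 ± 10.4 over the old mice (SD, n = 7). Its log2 fold change was -0.99 with the covariate (SE 0.19, limma adjusted p = 0.00856) and -1.04 without it (SE 0.20, limma adjusted p = 0.0544). CD34 is a surface protein that is gained as HSCs become progenitors. *Vwf*, a platelet protein also made in platelet-biased HSCs, stood at 0.87 with the covariate (SE 0.20, limma adjusted p = 0.0580). Between the letters, 5 of the 15 were called higher in letter B, with *Hhex* (0.73), *Nfe2* (0.72) and *Vwf* (0.59) among them. Another 2 were called lower, with *Slc4a1*, the anion exchanger of red cells, among them (-1.23). Of all genes 10.5% were called higher and 25.6% lower.

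Markers of other cells were present in all libraries. With age alone, 0 genes passed in each of the 8 marker lists. In letter B, 4 of 5 tested B and T lymphoid markers, 3 of 7 myeloid and 4 of 11 erythroid markers were called lower. Of the stem cell gate markers 0 of 4 were called, but all 4 were above 0, with a median log2 fold change of 0.48. That median was -0.09 over all genes and 0.30 over genes with a mean of 50 or more, as all 4 had. The gate markers summed to 672 to 1955 in letter A and 1737 to 2466 in letter B. Of all genes 25.6% were called lower, and of the 7555 tested genes with a mean under 50 there were 40.3%, which is close to the share of the erythroid markers. Such a mean was found for 8 of the erythroid, all 5 lymphoid and 2 of the myeloid markers. The other 3 erythroid and 5 myeloid markers had a mean of 50 or more. In the separate test limited to such genes, 2.35% were called lower. The summed lymphoid markers ranged from 142 to 287 in letter A and from 66.1 to 145 in letter B, and the summed myeloid markers from 282 to 2303 and from 263 to 596. The mast cell and basophil markers summed to 28.5 to 76.4 in letter A and 9.72 to 47.3 in letter B. No marker with a row was at 0 in every mouse. The megakaryocyte list had 1 of 6 called in each direction, the endothelial list 2 of 9 in each, and of the progenitor list, *Flt3* was called lower in letter B. The part of these cells in the letter difference of the factors was not tested.

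The genomic surroundings of the factors bear on how their reads were counted. Whether counting used the strand is not given in the sources used here. *Lyl1* (chromosome 8, 84701457 to 84704715, GRCm38 plus strand) overlaps *Nfix* on the opposite strand. If counting ignored the strand, reads of the 2 genes could not be told apart where they overlap. *Nfix* was also called higher in letter B, with a log2 fold change of 0.56 (limma adjusted p = 0.0236), as were 10.5% of all genes. *Lmo2* (chromosome 2, 103957986 to 103981878, plus strand) overlaps *4931422A03Rik*, which had a mean of 5.71 normalized read counts, on the opposite strand. *Mecom* overlaps *Mecomos* and *Gm37024*, and *Fli1* overlaps *Gm27201*, on the opposite strand. These are annotated but had no row, and other annotated genes without a row overlap *Mecom* and *Fli1* on the same strand. Of the nearest measured genes on either side, 0 passed with age. Between the letters *Nacc1* beside *Lyl1* (0.90), *Caprin1* beside *Lmo2* (0.76), *Stxbp4* beside *Hlf* (0.68) and *Gtf3c5* beside *Gfi1b* (0.62) were called higher in letter B, and *Kcnj1* beside *Fli1* (-2.003) lower. Of all genes 10.5% were called higher and 25.6% lower. *Kcnj1* had a mean of 11.2 normalized read counts, and of the genes with a mean under 50, 40.3% were called lower. Of the 50-base words of the transcripts, 0.331% of those of *Mecom* and 0.292% of those of *Fli1* also occur in another gene, and 0% of those of the other 6 factors.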

How the data were processed

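Gene levels in LSK-SLAM cells of 12 mice, 5 young and 7 old, came from 1 deposited table. In it the authors scaled the reads on a gene to the size of the library, which gives normalized read counts, a signal that is never negative. The submitters' processing notes name mm10, STAR 2.5.4b, FastQC 0.11.8 and edgeR 3.24.3. The counting tool and annotation are not given in the sources used here. The labels name 24 samples, 2 to a mouse, but the table holds a single column per mouse, and each mouse entered once. Whether the mice of a group differ in litter or day is not stated, so p-values measure the spread between these mice. A deposited table of the authors' own fold changes, p-values and FDR was not used.

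Since values are whole multiples of a step that is fixed within a column, the reads behind them could be recovered. 100% of the values above 0 came out whole within 0.01. Depth was 861047 to 5118507 reads, and 3 reads correspond to 0.583 to 3.69 normalized read counts. The members and gene lists were chosen with earlier results of these data known. Lists were drawn from general knowledge of the factors, and markers of 8 kinds of cell were included. Genes named are the members, in each list those called with age or otherwise the 2 with the smallest p, the gene most like each member, and neighbours that overlap or were called. In the marker lists counts are given in place of names. Some genes of the lists are not reported here.

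Tests used limma 3.58.1 in R 4.3.3 with a variance trend, on log2(value + 1), for 12354 genes with a mean of 10 or more, with Benjamini-Hochberg adjustment and a call at adjusted p under 0.05. Fold changes on this scale understate those of genes with low counts. The comparisons were age, the letter with age in the model, and their interaction. EdgeR 4.0.16 (quasi-likelihood, TMM) and DESeq2 1.42.0 on recovered reads were alternatives, as were other pseudocounts, minimum means, scalings, thinning and leaving out each mouse. The procedures were tested on simulated counts. Positions, exon lengths and transcripts came from GENCODE vM21 (GRCm38), which held 18745 of the 18762 gene identifiers, and promoters from RefSeq. Other steps used Python 3.11.15, numpy 2.4.6, pandas 2.3.3 and scipy 1.17.1. Replicate numbers pair different animals.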

Additional observations from a re-analysis of the deposited data

Results flagged for a closer look

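Of 64 groups of 5 young or 7 old mice, for 32 genes named here, 3 held a mouse that stood apart from the rest of its group by the gap to its nearest neighbour (Dixon's test). Chance gives about 1 in 20, or 3.2 of 64. In young mouse 2, *Lyl1* lay at 112 normalized read counts while its other young values were 199 to 223. *Max*, the partner of MYC proteins, measured 100.2 in young mouse 1, against 124 to 134 in the others. *Vwf* measured 183 in young mouse 1, against 298 to 341 in the others.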

How the results depend on the processing

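No factor passed the test of age under any of the 29 alternatives, and the directions of *Hlf* and *Gfi1b* were below 0 in all of them. The 13 genes called with age became 2 without the variance trend, 29 after rescaling by median ratios, 46 with DESeq2, 37 with the letter as a covariate, 1 within letter A and 100 within letter B. Among alternatives added after seeing the data, they became 44 with edgeR and the letter as a covariate, 50 with median ratios and the letter, 76 with the letter and without old mouse 5, and 8 in replicates 1 to 5 without the block. Leaving out 1 mouse gave 3 (without old mouse 1, 2 or 3 or young mouse 3 or 4) to 32 (without old mouse 5). Same-numbered young and old mice are different animals whose deviations correlated between -0.559 and 0.615, so the numbers do not pair them. A replicate block over replicates 1 to 5 gave 19 genes and changed no call of a factor.

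The 4462 genes called between the letters became 943 at a minimum mean of 50, 447 in young mice and 2761 in old mice, and the 7 factors called became 3, 0 and 2. Without the variance trend 2 factors were called. Leaving out 1 mouse gave 2943 to 5003 genes and 2 to 8 factors. The split of 1301 higher and 3161 lower became 1929 and 2588 with edgeR's TMM scaling and 775 and 3871 with median ratios. Of 192 values of the factors, 59 lost and 5 gained a call. The 2 genes called in the interaction became 1 with no filter or at a minimum mean of 50, 0 without the trend and 4 with DESeq2, and leaving out 1 mouse gave 0 to 6.

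With 5 and 7 mice, the intervals of the age effects reach from 0.434-fold for *Hlf* to 1.76-fold for *Gata2*, and the interval of each factor is narrower than this range. In the shallowest mouse 53 reads lay behind *Gfi1b*, and these limits cover counting error and the spread between mice only.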
